A study of Saccharomyces cerevisiae with 46 samples.

Results

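The 5 genes described here are the GABA shunt genes of *Saccharomyces cerevisiae* with *GAD1*, taken by their systematic names from the 3 deposited tables of RNA-seq values: *GAD1* (YMR250W), *UGA1* (YGR019W), *UGA2* (YBR006W), *UGA3* (YDL170W) and *UGA4* (YDL210W). The tables list 5574 genes in all. Of the 5 genes, 4 are in the table of *spt4Δ* and WT cells (5572 genes), and 2, *GAD1* and *UGA3*, are in each of the tables of anchor-away cells (4835 genes each). *UGA4* is not analysed here, and neither are *UGA1* and *UGA2* in the anchor-away strains. All 4 listed genes averaged 10 or more normalized counts wherever they were listed, so none was lost to the filter on low values. The pathway was chosen by the RNA-seq levels of *GAD1* in these tables, which were among the furthest above their controls, and with the levels of the other genes known, so the values below are a description of these libraries. The calls of the genome-wide test are counted beside the share of all genes called and are not read as evidence about the genes.

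RNA-seq was carried out on WT cells (BY4741 with *RPB3-3xFLAG*) and on *spt4Δ* cells of the same background, with 2 libraries each and no treatment. The anchor-away libraries came from BY4741 cells with *tor1-1*, *fpr1Δ*, *RPL13-2xFKBP12* and *RPB3-3xFLAG*, and with *SPT4* or *SPT5* fused to *FRB-eGFP*, in which rapamycin draws the FRB-tagged protein out of the nucleus. Spt4-AA cells were harvested 140 min and Spt5-AA cells 180 min after rapamycin (2 libraries each), and the control was 1 library of each FRB strain harvested 120 min after DMSO. The protein depleted, rapamycin and the time of harvest changed together and cannot be told apart, since no rapamycin-treated RNA-seq library without FRB is used here. Both anchor-away comparisons use the same 2 DMSO libraries. The labels do not say whether the replicates were separate cultures, so the errors measure only the spread between these libraries, which may be technical.

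In the GABA shunt, glutamate is turned into succinate by way of γ-aminobutyric acid (GABA), which bypasses the steps of the TCA cycle from 2-oxoglutarate to succinate. Gad1 is the glutamate decarboxylase that makes GABA, Uga1 the transaminase that turns GABA into succinate semialdehyde, and Uga2 the dehydrogenase that oxidizes the semialdehyde to succinate. Uga4 is a GABA permease, and Uga3 is the zinc-cluster activator that induces *UGA* genes when GABA is present. In yeast the pathway is known for the use of GABA as a nitrogen source and, with *GAD1*, for tolerance of oxidants.

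All 5 genes lie on the plus strand of the R64 assembly, each with 1 coding exon and no overlapping annotated gene. *GAD1* is on chromosome XIII from 770801 to 772558, *UGA1* on chromosome VII from 525229 to 526644, *UGA2* on chromosome II from 247010 to 248503, *UGA3* on chromosome IV from 156318 to 157904 and *UGA4* on chromosome IV from 84270 to 85985. *UGA3* lies beside *GLT1*, the glutamate synthase gene, which starts on the other side of a gap of 677 bases and is not analysed here. No other gene resembled *GAD1*, *UGA1*, *UGA3* or *UGA4* in nucleotide sequence, so none is uncertain through reads shared with a copy. *UGA2* matched 1 other gene (YOR374W, *ALD4*), over 81 bases with 75.3% identity.

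The sequences upstream of the 3 enzyme genes are shown because these genes, unlike *UGA3*, lay above WT in both *spt4Δ* libraries relative to the median gene. They are the 300 bases from 400 to 101 bases before the start codon in the R64 assembly, on the coding strand. Capitals mark the matches to 3 motifs searched on both strands. CCGCNNGCGG is a pair of the half-sites known for Uga3. GATAAG is the core bound by GATA factors such as Gln3, and AGGGG is the stress response element bound by Msn2 and Msn4. The motifs do not overlap each other in these windows. 
*GAD1*, chrXIII:770401-770700, plus strand: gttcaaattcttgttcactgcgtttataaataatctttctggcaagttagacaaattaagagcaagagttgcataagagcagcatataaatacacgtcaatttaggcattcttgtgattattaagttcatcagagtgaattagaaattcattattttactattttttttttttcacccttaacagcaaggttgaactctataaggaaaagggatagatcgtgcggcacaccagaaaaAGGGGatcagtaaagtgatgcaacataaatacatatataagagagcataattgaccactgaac
*UGA1*, chrVII:524829-525128, plus strand: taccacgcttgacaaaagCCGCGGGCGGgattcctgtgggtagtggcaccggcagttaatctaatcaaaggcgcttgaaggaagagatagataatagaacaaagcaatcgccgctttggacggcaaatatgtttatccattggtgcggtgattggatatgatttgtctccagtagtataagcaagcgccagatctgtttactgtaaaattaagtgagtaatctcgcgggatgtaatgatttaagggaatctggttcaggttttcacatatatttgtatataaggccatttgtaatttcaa
*UGA2*, chrII:246610-246909, plus strand: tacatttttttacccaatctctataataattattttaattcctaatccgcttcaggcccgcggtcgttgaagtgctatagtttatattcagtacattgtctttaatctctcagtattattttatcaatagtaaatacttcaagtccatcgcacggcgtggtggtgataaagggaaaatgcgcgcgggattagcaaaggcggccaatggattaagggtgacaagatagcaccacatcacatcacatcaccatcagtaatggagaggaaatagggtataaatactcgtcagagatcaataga
The *GAD1* window held 1 AGGGG, from 163 to 159 bases before the start codon, and neither of the other motifs. The *UGA1* window held the Uga3 pair, from 382 to 373 bases before the start codon, and the *UGA2* window held none of the 3. Of the genes not shown, *UGA4* had the Uga3 pair (399 to 390 bases before the start codon) and 1 AGGGG, and *UGA3* had 2 matches to GATAAG and neither of the others. Over the windows of 6001 protein-coding genes, 17 windows (0.283%) held the Uga3 pair, 13.9% GATAAG and 23.5% AGGGG. A match is a match of letters only.

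Facts of the libraries bear on the scale of every value. The authors divided the reads of each library by a size factor, and between 798455 and 6814227 reads per library were recovered from the tables. The median gene of *spt4Δ* lay 0.83 above WT on the log2 scale, that of Spt4-AA 0.28 and that of Spt5-AA 1.84 below DMSO. *spt4Δ* replicate 1 stood apart: its normalized counts summed to 12538512, against 3761984 to 3943991 in the other libraries of the table. Changes of the GABA shunt genes are therefore given as deposited and relative to the median gene of its table. A few values are given after each library was divided by the median of its ratios to the mean library (median-ratio rescaling). *SPT4* had 531 and 250 reads in WT and 0 and 4 in *spt4Δ* replicates 1 and 2. *FPR1*, deleted in the anchor-away strains, had 1 to 17 reads in those 6 libraries.

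*GAD1* was low in all 4 control libraries and higher in every *spt4Δ*, Spt4-AA and Spt5-AA library. It had 58.5 and 80.5 normalized counts in WT replicates 1 and 2, and 626 and 266 in *spt4Δ* replicates 1 and 2. Both *spt4Δ* libraries lay above both WT libraries, but they differed from each other by more than the WT libraries did. The means were 69.5 ± 15.6 in WT and 446 ± 254 in *spt4Δ* (SD, n = 2 each), a log2 fold change of 2.55 (standard error 0.766 from limma) after 1 was added to each normalized count. Relative to the median gene it was 1.72, with 1.63 in replicate 1 and 1.80 in replicate 2, so on this scale the 2 *spt4Δ* libraries lay close together. 

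In the anchor-away strains the *GAD1* transcript was low with DMSO, at 46.7 normalized counts in the Spt4-FRB and 44.4 in the Spt5-FRB strain. After depletion of Spt4 it stood at 371 and 397 in replicates 1 and 2. The groups were far apart and neither library stood out. The log2 fold change of Spt4-AA over DMSO was 3.05 (standard error 0.182, means 384 ± 18.3 and 45.5 ± 1.63, SD, n = 2 each), the highest of the 4685 genes tested. Relative to the median gene it was 3.33, or 10.0-fold.

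After depletion of Spt5, *GAD1* had 848 and 835 normalized counts, against 51.2 and 48.8 in the same DMSO libraries, which are scaled separately in this table. This was a gene with a 16.8-fold higher level in libraries whose median gene was lower. The log2 fold change was 4.05 (standard error 0.167, means 841 ± 9.11 and 50.0 ± 1.68, SD, n = 2 each), with only 2 of 4673 genes above it. Relative to the median gene it was 5.88, or 59.0-fold, with 5.97 in replicate 1 and 5.80 in replicate 2.

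The difference was also present in the recovered reads, which the size factors do not touch. *GAD1* took 15.1 of every 1000000 reads in WT replicate 1 (95% exact Clopper-Pearson interval 12.2 to 18.6) and 20.4 in WT replicate 2 (15.4 to 26.5). In *spt4Δ* it took 49.9 (44.7 to 55.5) and 70.7 (64.4 to 77.6). In the DMSO libraries it took 19.8 (14.0 to 27.3) and 17.3 (12.1 to 23.9), on 37 and 36 reads. In Spt4-AA this became 216 (196 to 237) and 205 (188 to 222), and in Spt5-AA 1251 (1175 to 1331) and 1198 (1136 to 1264) of every 1000000 reads. The intervals cover counting error only, and none of a control library overlapped one of an *spt4Δ*, Spt4-AA or Spt5-AA library. A higher level in each cell and a larger share of cells with the transcript cannot be told apart in such cultures.

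**Figure D1:**
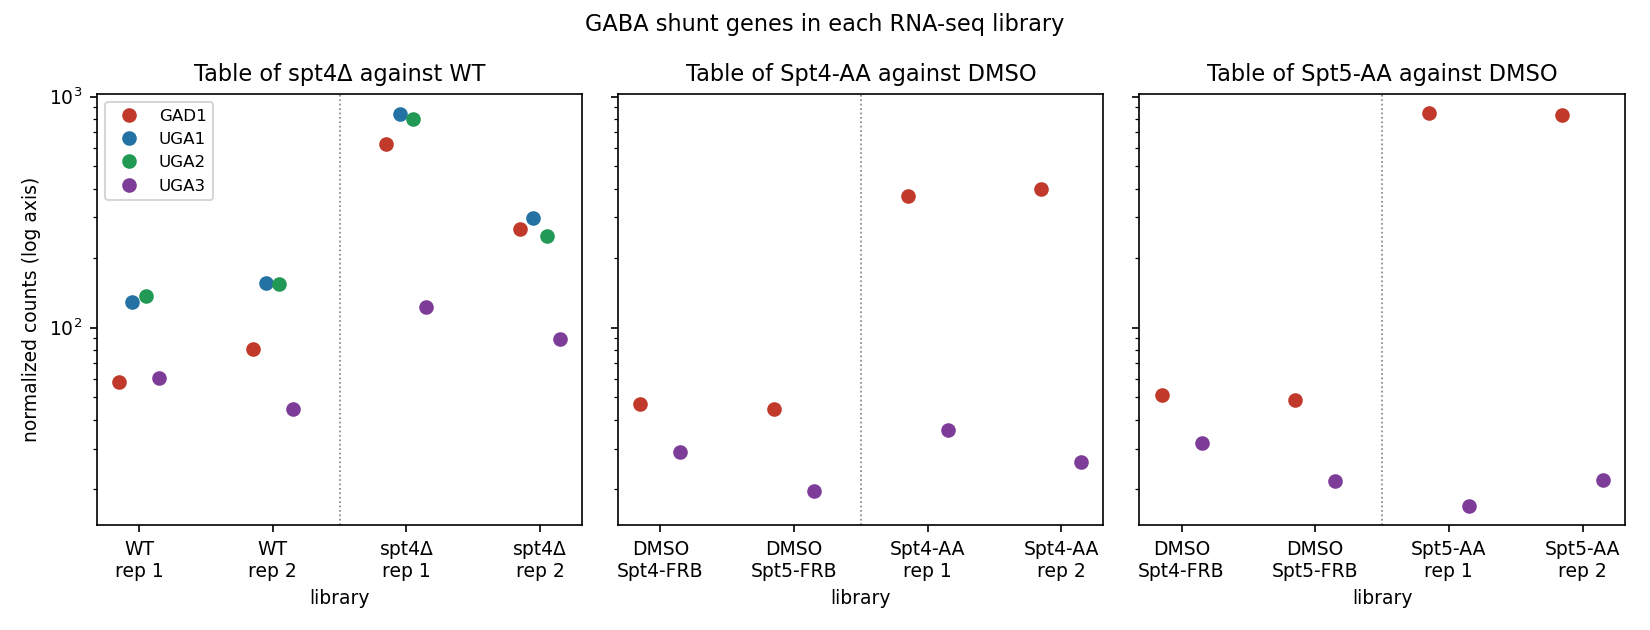
Normalized counts (log axis) of the listed GABA shunt genes in each RNA-seq library, with one panel per deposited table and a dotted line between control and test libraries. *GAD1* lies between 44.4 and 80.5 in every control library and between 266 and 848 in every *spt4Δ*, Spt4-AA and Spt5-AA library. *UGA3* stays between 17.0 and 36.1 in the anchor-away tables.

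*UGA1*, the gene of the GABA transaminase, had 130 and 157 normalized counts in WT replicates 1 and 2, and 843 and 299 in *spt4Δ*. Both *spt4Δ* libraries lay above WT, and most of the distance of replicate 1 was shared with the median gene. The log2 fold change was 1.81 (standard error 0.846), and 0.98 relative to the median gene, with 1.02 in replicate 1 and 0.92 in replicate 2.

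*UGA2*, which encodes the succinate semialdehyde dehydrogenase, was close to *UGA1* in every library. It had 137 and 154 normalized counts in WT and 800 and 249 in *spt4Δ*. The log2 fold change was 1.62 (standard error 0.836), and 0.78 relative to the median gene, with 0.92 in replicate 1 and 0.63 in replicate 2. Relative to the median gene the *spt4Δ* libraries thus lay above WT by 3.30-fold for *GAD1*, 1.97-fold for *UGA1* and 1.72-fold for *UGA2*.

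*UGA3*, the gene of the activator, differed least. It had 60.4 and 44.6 normalized counts in WT and 123 and 88.9 in *spt4Δ*, a log2 fold change of 1.00 (standard error 0.674). Relative to the median gene this was 0.17, and the replicates fell on either side of 0, at -0.31 and 0.62. In Spt4-AA it had 36.1 and 26.3 normalized counts against 29.0 and 19.7 with DMSO, and these ranges overlapped (log2 fold change 0.35, standard error 0.353). Its relative value was 0.63, with 0.86 in replicate 1 and 0.40 in replicate 2. After median-ratio rescaling the ranges did not overlap, and 28% of all genes were likewise higher without overlap. Without the Spt5-FRB DMSO library the relative value was 0.33, and without the Spt4-FRB DMSO library 0.94. In Spt5-AA it had 17.0 and 22.0 against 31.8 and 21.7, which overlapped as well (log2 fold change -0.42, standard error 0.348). In the libraries of Spt5-AA the median gene was lower still, and relative to it *UGA3* lay at 1.41, with 1.31 in replicate 1 and 1.52 in replicate 2. After median-ratio rescaling these ranges did not overlap either, as was the case for 37.2% of all genes on the higher side. The direction of *UGA3* in Spt5-AA thus depended on the scale. In this comparison it rests on 16 to 36 reads per library, so that the precision is low.

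Of the 4 listed genes, 0 were called in *spt4Δ* by limma at an adjusted p under 0.05, where 0.246% of 5283 genes were called. At an unadjusted p under 0.05 there were 2 (*GAD1* and *UGA1*), where 4.98% of all genes passed. On the recovered reads edgeR called 1 (*GAD1*), against 0.871% of genes, and DESeq2 called the same 2, against 2.04%. *GAD1* was called higher in Spt4-AA and in Spt5-AA and *UGA3* in neither, where 3.03% and 2.38% of genes were called higher and 18.8% and 90.7% lower. After median-ratio rescaling, *GAD1* was called in all 3 comparisons and *UGA3* in Spt5-AA, against backgrounds of 0.625%, 4.74% and 25.5% of genes called higher in *spt4Δ*, Spt4-AA and Spt5-AA. The *spt4Δ* libraries did not overlap WT for any of the 4 genes as deposited, and lay above it, as did 55.5% of all genes. The depletion libraries lay wholly above DMSO for *GAD1* in both anchor-away comparisons, as did 12.1% of all genes in Spt4-AA and 3.12% in Spt5-AA. With either *spt4Δ* library left out, the spread came from the WT libraries alone, so only fold changes are given here. Without *spt4Δ* replicate 1 the log2 fold change was 1.94 for *GAD1*, 1.06 for *UGA1*, 0.78 for *UGA2* and 0.77 for *UGA3*. Without *spt4Δ* replicate 2 the 4 fold changes were 3.17, 2.56, 2.46 and 1.23. 

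**Figure D2:**
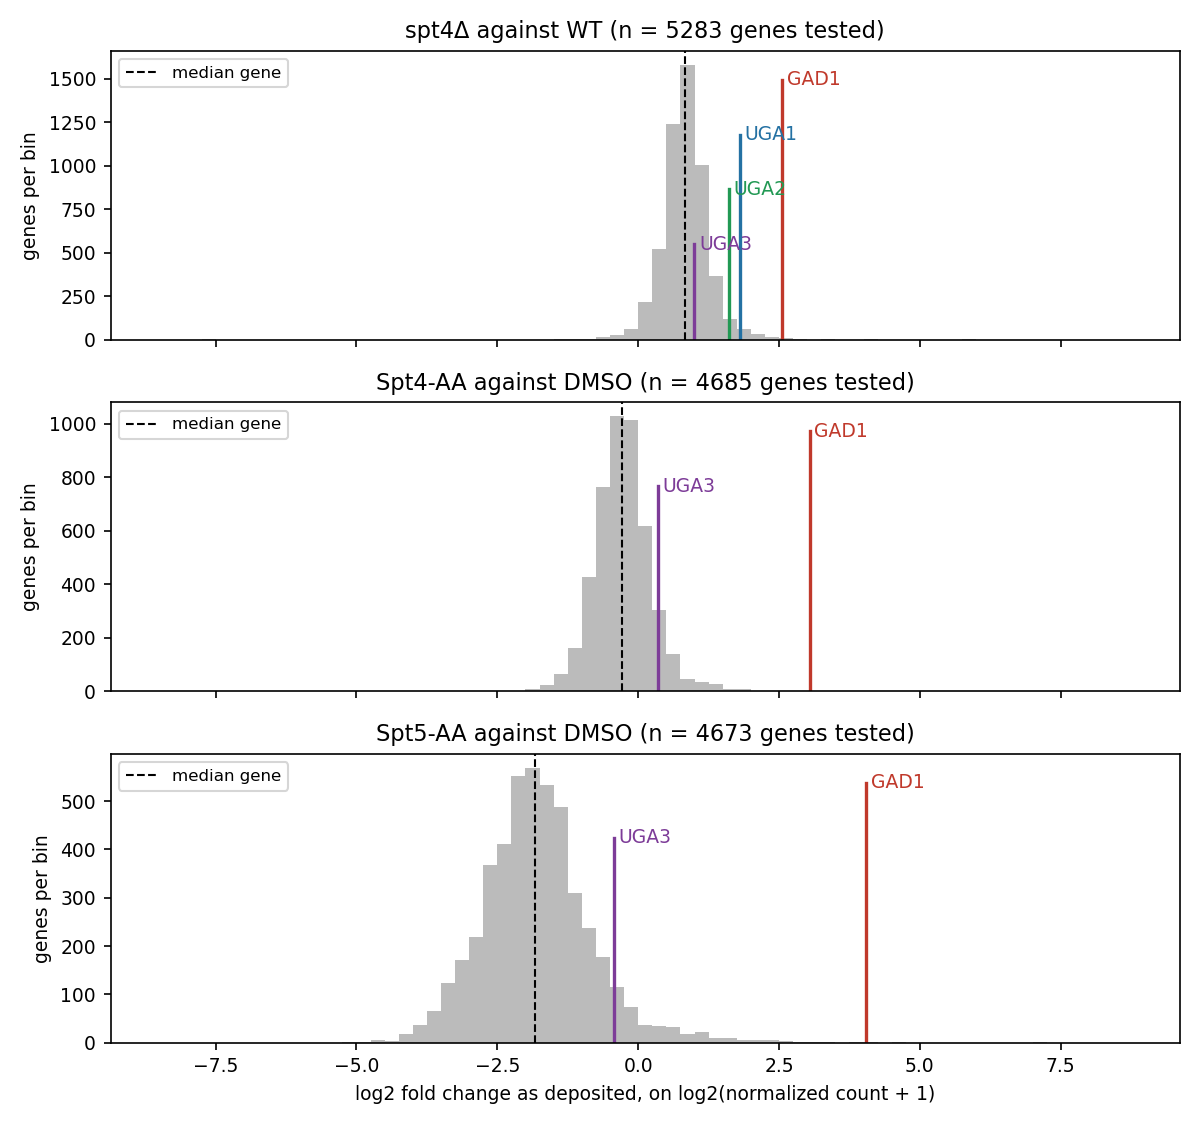
Distribution of the log2 fold change as deposited over all genes tested in each comparison (grey, genes per bin of the histogram), with the median gene dashed and the listed GABA shunt genes marked in colour. *GAD1* lies at 2.55, 3.05 and 4.05 while the median gene lies at 0.83, -0.28 and -1.84 in *spt4Δ*, Spt4-AA and Spt5-AA.

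**Figure D3:**
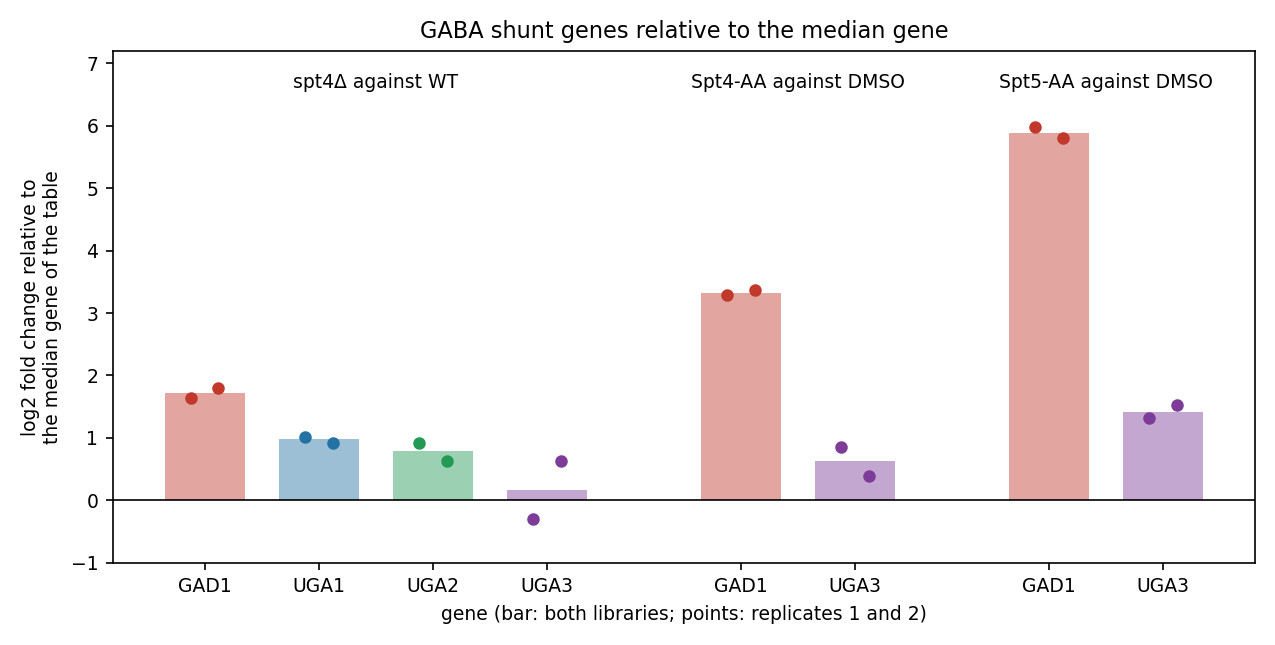
Log2 fold change of each gene relative to the median gene of its table, with bars for both libraries together and points for replicates 1 and 2. *GAD1* lies at 1.72, 3.33 and 5.88, and of the 8 bars only that of *UGA3* in *spt4Δ* has replicates on both sides of 0.

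Levels were compared between the genes per kb of coding sequence, as a multiple of the median gene of the same library, a ratio that the size factors do not touch. In WT, *UGA1* was at 0.548 and 0.667 and *UGA2* at 0.548 and 0.620 times the median gene, which did not differ beyond their spread. *GAD1* followed at 0.199 and 0.276 and *UGA3* at 0.228 and 0.169, and their order was not the same in both libraries. In *spt4Δ* the order was *UGA1* (1.21 and 1.12), *UGA2* (1.09 and 0.885), *GAD1* (0.725 and 0.803) and *UGA3* (0.158 and 0.297). In *spt4Δ* the values of *GAD1* and *UGA3* did not overlap.

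Over the conditions, the level of *GAD1* on this scale was lowest in DMSO (0.213 and 0.196) and WT, whose ranges overlapped, followed by *spt4Δ*, Spt4-AA (2.05 and 2.03) and Spt5-AA (12.8 and 11.2), whose ranges did not. The median gene was taken over 5317 genes in the table of *spt4Δ* and over 4716 in the anchor-away tables, so this order sets values of unlike gene sets side by side. In each library *GAD1* exceeded 13.6% and 18.4% of genes in WT and 42.0% and 42.9% in *spt4Δ*. It exceeded 9.52% and 8.84% with DMSO, 69.9% and 68.8% in Spt4-AA, and 95.6% and 95.2% in Spt5-AA. *UGA3* lay at 0.146 and 0.0963 times the median gene with DMSO, 0.221 and 0.149 in Spt4-AA and 0.285 and 0.329 in Spt5-AA.

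The genes next to these on the chromosomes were described too. *GTO3*, a glutathione transferase gene that starts 356 bases after *GAD1* on the same strand, had 73.7 and 73.3 normalized counts in WT and 105 and 44.7 in *spt4Δ*. Its log2 fold change was -0.0989 (adjusted p = 0.902 in limma), and -0.93 relative to the median gene. *VMA7*, a vacuolar ATPase subunit gene that converges on *UGA1*, lay at 0.0889 relative to the median gene in *spt4Δ*, and YGR018C, on the other side of *UGA1*, at 0.0514. *RCR1*, which lies 462 bases before *UGA2*, had a relative log2 fold change of 0.72 in *spt4Δ*, close to the 0.78 of *UGA2*, and was not called (adjusted p = 0.655 from limma, and 0.312 after median-ratio rescaling). *DSF2*, after *UGA2*, lay at -0.11, and *CWC2*, a splicing factor gene after *UGA4*, at -0.0210. In Spt5-AA, *RCR1* lay at 0.83, *DSF2* at 1.25, *CWC2* at 0.30 and *VMA7* at -1.04 relative to the median gene. *UGX2*, after *UGA3*, had 2.54 to 16.6 normalized counts over the 3 tables and was not tested.

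Genes that make, use and regulate the metabolites of the shunt were taken as 3 lists. Of the enzymes that interconvert glutamate, glutamine and 2-oxoglutarate (with the glutamate carrier *AGC1*), 5 of 6 were tested in *spt4Δ*, and limma called 0 as deposited (1, *GDH3*, at an unadjusted p under 0.05, 0 by edgeR and 1, *GDH3*, by DESeq2). Of all genes, 0.246%, 4.98%, 0.871% and 2.04% passed in the same order. The median log2 fold change of the 5 was 1.19, against 0.83 over all genes. *GDH3*, the glutamate dehydrogenase known for growth without glucose, was the furthest from the median gene, at 36.2 normalized counts in WT and 202 in *spt4Δ* (relative log2 fold change 1.44). It was called after rescaling by the median ratio (adjusted p = 0.0394 from limma), where 0.625% of all genes were called higher, and not as deposited (adjusted p = 0.156). In Spt4-AA, 0 of 4 tested were called by limma (also 0 at an unadjusted p under 0.05, and 0 by edgeR and by DESeq2, where 36.5%, 9.8% and 9.99% of all genes passed), with a median of -0.14 against -0.28. In Spt5-AA, 3 of 4 were called lower as deposited, as were 90.7% of all genes, with a median of -0.46 against -1.84. All 4 lay above the median gene, and all 4 were called higher after rescaling, as were 25.5% of all genes. *GDH1*, the main glutamate dehydrogenase for synthesis, had 2548 normalized counts with DMSO and 2663 in Spt5-AA (log2 fold change 0.0700, adjusted p = 0.694 in limma, and 1.91 relative to the median gene). *GLN1*, the glutamine synthetase gene, had 1177 and 867 (log2 fold change -0.44, adjusted p = 0.00863 in limma, and 1.40 relative to the median gene).

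The enzymes of the bypassed stretch of the TCA cycle, with succinate dehydrogenase, lay above the median gene in most cases. In *spt4Δ*, 8 of 10 did, with a median of 1.16 against 0.83 over all genes. Limma called 0 of the 10 (1, *SDH2*, at an unadjusted p under 0.05, 0 by edgeR and 0 by DESeq2). Of all genes, 0.246%, 4.98%, 0.871% and 2.04% passed in the same order. In Spt4-AA, 9 of 9 lay above the median gene, with a median of 0.39 against -0.28. *SDH2*, the iron-sulphur subunit of succinate dehydrogenase, was called higher there (23.0 normalized counts with DMSO and 54.1 in Spt4-AA, log2 fold change 1.26 ± 0.333 (standard error), adjusted p = 0.0241 in limma), as were 3.03% of all genes. After rescaling, *LSC1*, a subunit of succinyl-CoA ligase, was called too (log2 fold change relative to the median gene 0.83, adjusted p = 0.0492), where 4.74% of all genes were called higher. In Spt5-AA, 7 of 9 were called lower as deposited and 0 higher, where 90.7% and 2.38% of all genes were, with a median of -0.95 against -1.84. All 9 lay above the median gene, and 6 were called higher after rescaling, where 25.5% of all genes were. The largest of these, *LSC2*, the other subunit of that ligase, had 254 normalized counts with DMSO and 279 in Spt5-AA (relative log2 fold change 1.97).

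Regulators and other GABA carriers made up the third list. *UGA35*, *GLN3*, *GAT1*, *GZF3*, *URE2* and *LEU3* encode regulators of nitrogen and amino acid genes, and *PUT4* and *GAP1* permeases that also carry GABA. Of 8 tested in *spt4Δ*, limma called 0 on either scale, 2 (*PUT4* and *GAP1*) had an unadjusted p under 0.05, and edgeR and DESeq2 called 0 each. Of all genes, 4.98% had an unadjusted p under 0.05, and limma as deposited, edgeR and DESeq2 called 0.246%, 0.871% and 2.04%. The median log2 fold change of the list was 0.58 against 0.83. The permeases *GAP1* (100 normalized counts in WT and 458 in *spt4Δ*) and *PUT4* (10.3 and 39.8) lay at 1.00 and 1.06 relative to the median gene. *UGA35* (64.9 and 68.7), the coactivator that acts with Uga3, lay at -0.75, but its *spt4Δ* libraries differed. It took 5.14 and 19.4 of every 1000000 reads in *spt4Δ* replicates 1 and 2, against 16.1 and 17.1 in WT, so only replicate 1 lay below WT. *PUT4* rests on 21 and 5 reads in WT and 25 and 57 in *spt4Δ*, so that its precision is low. In Spt4-AA, *LEU3* was called lower (218 normalized counts with DMSO and 127 in Spt4-AA, log2 fold change -0.78, adjusted p = 0.0208 in limma) among 6 tested, as were 18.8% of all genes. After rescaling 0 were called by limma (1 at an unadjusted p under 0.05, where 27.7% of all genes passed), and edgeR and DESeq2 called 0. In Spt5-AA, 5 of 6 were called lower as deposited, as were 90.7% of all genes. After rescaling limma called 0 in either direction (1 at an unadjusted p under 0.05, 0 by edgeR and by DESeq2, where 58.6%, 56.1% and 41.6% of all genes passed), with *UGA35* at -0.26 relative to the median gene.

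**Figure D4:**
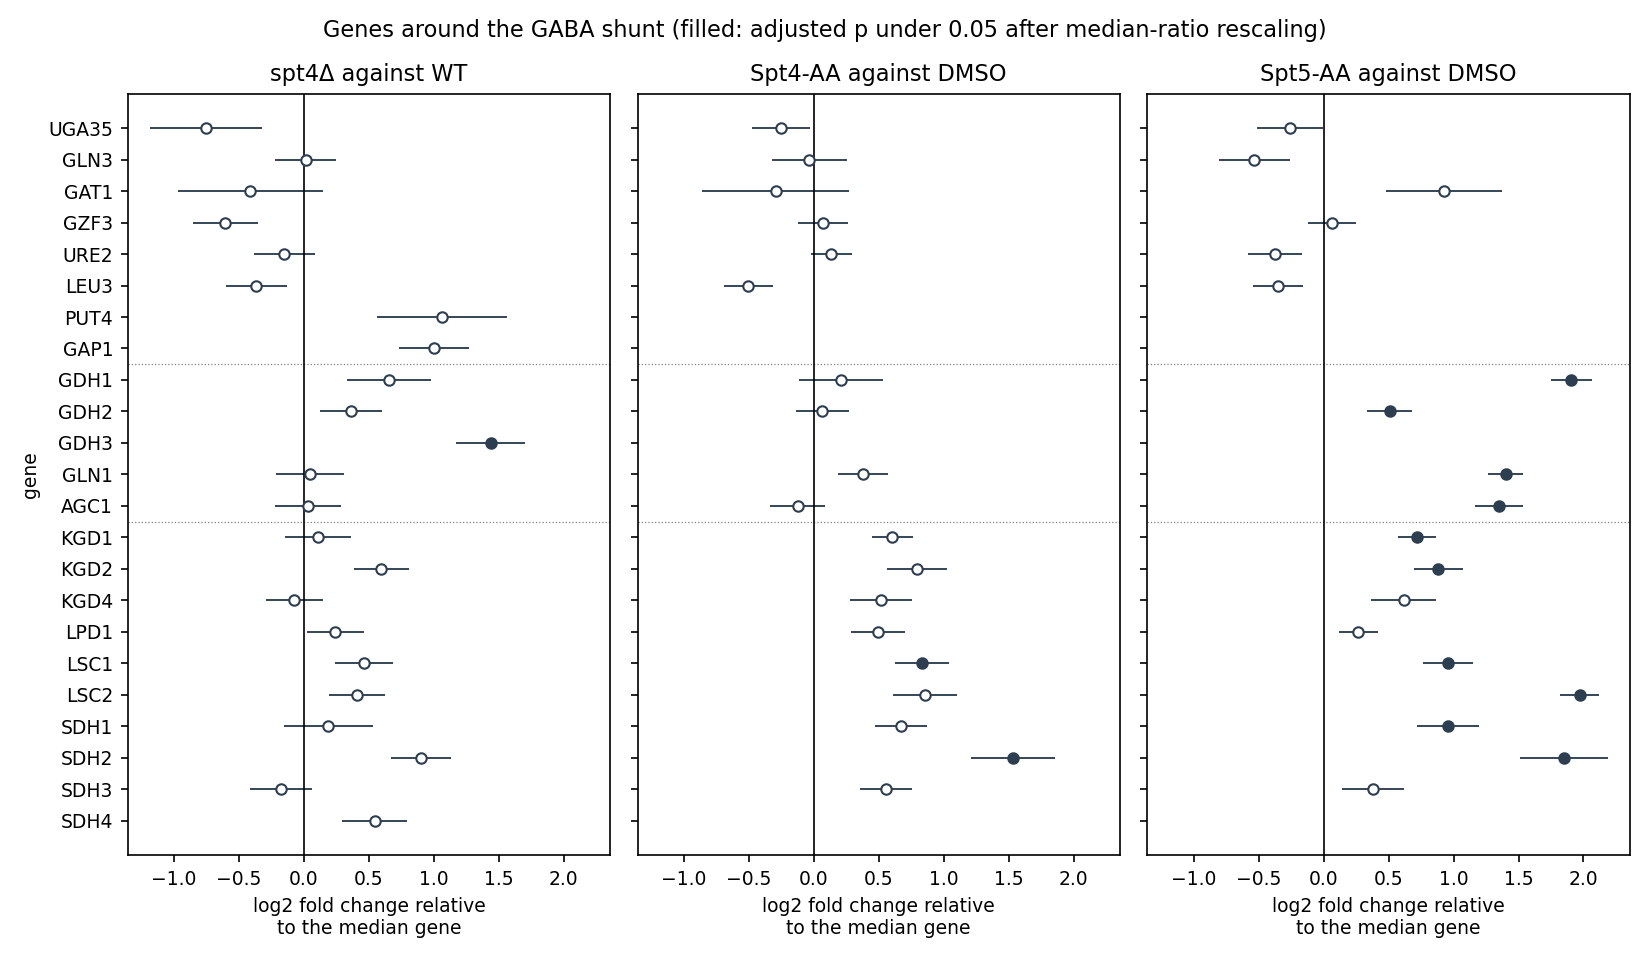
Log2 fold change relative to the median gene of the genes around the GABA shunt, by list from top to bottom (regulators and permeases, glutamate and glutamine, 2-oxoglutarate to fumarate), with 1 standard error of the fit after median-ratio rescaling and filled points for those called on that scale. Among the filled points, *GDH1* is at 1.91 and *LSC2* at 1.97 in Spt5-AA, and *GDH3* at 1.44 is the only filled point in *spt4Δ*.

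Genes known to be induced by general stress and poor carbon supply were described beside *GAD1*. Of 10, 9 were tested in *spt4Δ*. They had a median log2 fold change of 1.82 against 0.83 over all genes, and 9 of 9 lay above the median gene. Limma called 0 as deposited (7 at an unadjusted p under 0.05, 2 by edgeR and 2 by DESeq2). Of all genes, 0.246%, 4.98%, 0.871% and 2.04% passed in the same order. After rescaling, *PGM2* (relative log2 fold change 1.53, adjusted p = 0.0317 from limma) and *HSP12* (1.40, adjusted p = 0.0333) were called higher, as were 0.625% of all genes. In Spt4-AA, 3 were tested, and *HSP12*, which encodes a small membrane-associated stress protein, was called higher (9.33 normalized counts with DMSO and 50.7 in Spt4-AA, log2 fold change 2.31, adjusted p = 0.00500), as were 3.03% of all genes. *TKL2*, a transketolase gene, had 17.5 and 25.5 (0.41, adjusted p = 0.565) and *ALD3*, an aldehyde dehydrogenase gene, 26.1 and 23.9 (-0.13, adjusted p = 0.815), and neither was called. In Spt5-AA all 3 were called higher as deposited, as were 2.38% of all genes. *HSP12* had 10.2 normalized counts with DMSO and 1538 in Spt5-AA (log2 fold change 7.11, adjusted p = 1.20e-21), *TKL2* 19.2 and 44.0 (1.17, adjusted p = 0.000849) and *ALD3* 28.7 and 57.4 (0.98, adjusted p = 0.00112). Of the 3, *HSP12* was thus called together with *GAD1* in both anchor-away comparisons, and *TKL2* and *ALD3* in Spt5-AA but not in Spt4-AA. The part of these genes in the level of *GAD1* was not tested.

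The genes most like *GAD1* over the 10 libraries were sought among the 3615 others that averaged 50 or more normalized counts in all 3 tables. Likeness was Pearson's r of the log2 level after median-ratio rescaling, less the mean of the controls of the table. The points share libraries and controls and fall into few conditions, so that r is a description only, and 6.28% of these genes had an r above 0.9. The highest were YLR225C (0.996), YBR071W (0.994), YBR085C-A (0.994), *SLA2* (YNL243W, 0.993), which encodes an adaptor of endocytosis, and *PCS60* (YBR222C, 0.992), which encodes a peroxisomal acyl-CoA synthetase-like protein. The sizes differed: *PCS60* stood at 1.00 and 1.34 in *spt4Δ*, 1.85 and 1.83 in Spt4-AA and 3.27 and 3.42 in Spt5-AA on this log2 scale, and *SLA2* at 0.21 and 0.37, 0.62 and 0.66, and 1.33 and 1.29. Without the Spt5-AA libraries the r of these 5 genes lay between 0.978 and 0.996.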

How the data were processed

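RNA-seq of 10 libraries was analysed, and the other libraries of the study were not used here. The deposited tables hold normalized counts, a signal in which the reads of each gene had been divided by the authors by 1 size factor per library. Per the labels, Trim Galore, TopHat and DESeq2 were used with sacCer3, R64 and ASM294v2, and S. pombe cells were added before lysis; the counter and the source of the size factors are not given in the sources used here. Whole reads were recovered, with 100% of values within 0.01 read of a multiple of the lowest value above 0. The authors' own tables of fold changes and p-values were not used.

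The main test was limma (3.58.1, R 4.3.3) with trend, two-sided, after 1 was added to each normalized count and log2 taken. Benjamini-Hochberg adjustment ran over all genes averaging 10 or more normalized counts, each table was fitted alone, and calls were made below an adjusted p of 0.05. The scale understates changes of low genes. Relative values are the fold change less the median over all genes tested. On simulated counts the test recovered 99.0%, 100% and 100% of 200 changed genes in the designs of spt4Δ, Spt4-AA and Spt5-AA. These held 5200, 4684 and 4704 genes, and 3.88%, 2.91% and 5.66% of the calls were false. Only large changes of genes above a minimum level were simulated, with the same dispersion for every gene. The simulated replicates did not differ in level, so these shares do not carry over to the spt4Δ libraries, whose levels differed. edgeR (4.0.16) and DESeq2 (1.42.0) were run on the recovered reads. Sequences and positions came from the R64 RefSeq assembly, similarity from BLAST+ (2.17.0), and other values from Python 3.11.15 (numpy 2.4.6, pandas 2.3.3, scipy 1.17.1).

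The members and lists were chosen with earlier results of these data known. Named are the 5 genes, the genes beside them, called genes of 3 lists, up to 4 of the stress list and the 5 genes most like GAD1; others named from the lists (GDH1, GLN1, LSC2, GAP1, PUT4, UGA35, GDH3) were chosen after their values were seen. Alternatives were pseudocounts of 0.1 and 10, no filter or an average of 100 or more, 2 rescalings, edgeR, DESeq2, a replicate block, and each library left out.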

Additional observations from a re-analysis of the deposited data

How the results depend on the processing

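In every fit run, GAD1 was higher than in its controls in all 3 comparisons, and it was called in Spt4-AA and Spt5-AA. Where a value changed below, the cause was not tested.

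In spt4Δ, where 13 genes were called and GAD1 was not, 52 were called after rescaling by the median ratio (GAD1 1.71, now called), 46 with edgeR (1.75, called) and 108 with DESeq2 (1.73, called, and UGA1 0.97, called). Among genes averaging 100 or more normalized counts, 3 were called. In Spt4-AA (1022 called, 13.9% higher) there were 671 when libraries were set to 1 total (72.9% higher), 424 by the median ratio (52.4%), 459 with edgeR (53.8%) and 468 with DESeq2 (51.9%). In Spt5-AA (4351, 2.55% higher) there were 2501 (55.3%), 2531 (47.1%), 2621 (49.2%) and 1943 (47.7%) in the same order, and 2597 among genes averaging 100 or more, where fewer genes were tested. The log2 fold change of UGA3 in Spt5-AA (-0.42) was 1.48 at equal totals, 1.36 by the median ratio, 1.42 with edgeR and 1.42 with DESeq2.

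With each library left out in turn, 1 to 4989 genes were called in spt4Δ, 4 to 1736 in Spt4-AA and 4144 to 4347 in Spt5-AA, and a lone library was taken to vary like the other group. The count in Spt4-AA was 8 without the Spt4-FRB and 4 without the Spt5-FRB DMSO library, and in spt4Δ 3 without WT replicate 1 and 1 without WT replicate 2. In spt4Δ the log2 fold change of GAD1 ran from 1.94 to 3.17, of UGA1 from 1.06 to 2.56, of UGA2 from 0.78 to 2.46 and of UGA3 from 0.77 to 1.23. Relative to the median gene they ran from 1.49 to 1.95, 0.84 to 1.11, 0.63 to 0.92 and -0.31 to 0.62, and UGA3 was also below 0 without WT replicate 2 (-0.0489). In Spt4-AA the relative value of GAD1 ran from 3.26 to 3.41, and in Spt5-AA that of UGA3 from 1.11 to 1.73. As deposited, UGA3 ran from 0.0839 without the Spt5-FRB to 0.62 without the Spt4-FRB DMSO library in Spt4-AA (0.33 to 0.94 relative), and from -0.69 to -0.16 without the same libraries in Spt5-AA. It was 0.13 without Spt4-AA replicate 1 and 0.57 without replicate 2, and -0.24 and -0.60 without Spt5-AA replicates 1 and 2.

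With the replicate number as a block, 10 genes were called in spt4Δ and 0 of the 4 GABA shunt genes. The same-numbered libraries of WT and spt4Δ did not deviate together (r = -0.37 across 4189 genes). With 2 libraries per group this value is the same for both numbers, so it cannot show whether the numbers pair the libraries. With the numbers crossed, chosen after seeing the data, 7 were called. Rescaled by the median ratio with the replicate block, also chosen then, 92 were called, with GAD1 (1.71) among them. No paired analysis was possible for the anchor-away comparisons because the DMSO libraries carry no replicate number. Depth limits UGA3 most, with 16 to 41 reads in each anchor-away library.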
